A study of Homo sapiens with 6 samples.

Results

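Collagen genes were compared between control and NFKBIZ knockdown cells of LOX-IMVI, an established human melanoma line. Every protein-coding gene whose symbol has the form COL, a number, A and a number was taken, which gave 44 of the 47432 genes listed. They comprise 11 fibrillar collagens, 6 chains of type IV, the collagen of basement membranes, and 27 other collagens. The control cells (shCtrl) carried the lentiviral vector pLKO.1, and the knockdown cells (shNFKBIZ) carried pLKO.1 with a single short hairpin RNA against NFKBIZ, the gene of the nuclear co-regulator IκBζ. Both were grown in RPMI-1640 with fetal calf serum, and each group had 3 libraries of total RNA. The comparison asked which genes depend on IκBζ in these cells. No second hairpin was sequenced here, so effects of this hairpin on other transcripts cannot be told apart from those of IκBζ.

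Collagens are extracellular proteins built from polypeptide chains that wind into a triple helix, and each gene encodes a single chain. Fibrillar collagens such as types I, III and V are secreted as procollagens, trimmed at their ends and laid down as the cross-linked fibrils of skin, tendon and bone, whereas type IV chains form the network of basement membranes and other collagens form beaded filaments, decorate fibrils or span the cell membrane. Melanoma cells grow in a dermis rich in type I and III collagen, most of which is made by fibroblasts, and they both break this matrix down and add chains of their own.

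The libraries held 22264473 to 24624839 exon reads, of which 0.133% to 0.166% fell on collagen genes. NFKBIZ was at 44.5 ± 4.12 TPM (exon reads per exon length, scaled to the same sum in every library, mean ± SD, n = 3) in shCtrl and at 13.7 ± 0.362 TPM in shNFKBIZ cells. Of the melanocyte markers, MITF was at 3.21 TPM in shCtrl and 2.00 TPM in shNFKBIZ cells, and MLANA and SOX10 had no read in any library. Of 6 markers of fibroblasts, a main source of collagen in tissue, PDGFRA was higher in shNFKBIZ cells (log2 fold change 2.06), PDGFRB (-1.98) and THY1 (-1.07) were lower, and DCN and LUM had no read in shNFKBIZ and 7 and 1 reads in all shCtrl libraries together. The summed level of these 6 genes was 73.5 to 80.9 TPM in shCtrl and 59.95 to 61.4 TPM in shNFKBIZ libraries, and their part in the collagen changes was not tested. In a bulk culture, fewer cells that express a gene and less RNA per cell cannot be told apart.

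LOX-IMVI cells expressed a narrow set of collagens, and after NFKBIZ knockdown collagen genes were changed in both directions. COL3A1, COL1A2 and COL1A1, the chains of types III and I, fell, while COL13A1, COL8A1, COL19A1, COL16A1, COL5A1, COL11A1 and COL5A3 rose. Of these, COL1A2, COL8A1, COL19A1, COL11A1 and COL5A3 had means below 1 TPM in both groups. Among the 6 collagens with a group mean of at least 10 TPM, only COL1A1 changed by 2-fold or more. COL6A2, the most abundant collagen and a chain of type VI, was not called. Exon reads were detected for 40 of the 44 genes, and 20 had enough reads to be tested, namely 9 fibrillar, no basement membrane and 11 other collagens. Of the 24 not tested, 17 had at most 10 reads over all libraries. COL2A1, COL6A6, COL9A1 and COL20A1 had none, and a count of 0 allows up to 3 reads. Of these 20, 10 were past the threshold (at least 2-fold with an adjusted P of at most 0.05 in the edgeR quasi-likelihood test), 7 higher and 3 lower in shNFKBIZ cells. Over all 13843 genes tested, 8.96% were past it, 3.84% higher and 5.12% lower. Whatever the size of the change, 14 of the 20 had an adjusted P of at most 0.05, 9 higher and 5 lower, beside 65.3% of all genes, 32.5% higher and 32.8% lower. For 15 of the 20, the groups did not overlap in reads scaled to library size with TMM factors, as in the test, beside 68.6% of all genes. COL11A2 and COL6A3 were among the 15 although their groups overlapped in TPM. COL1A2, COL3A1 and COL11A2 reached 10 reads in every library of shCtrl but not of shNFKBIZ, and COL5A3, COL8A1 and COL11A1 in every library of shNFKBIZ but not of shCtrl, so the tested genes are no neutral sample of the 44.

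The levels differed by several orders of magnitude. COL6A2 and COL6A1 together made up 85.6% to 89.3% of the summed collagen TPM of a library, and the 6 genes with a group mean of at least 10 TPM (COL6A2, COL6A1, COL1A1, COL27A1, COL12A1 and COL9A3) made up 97.2% to 97.7%. The summed TPM of all collagens was 819 ± 17.4 in shCtrl and 915 ± 101 in shNFKBIZ cells (mean ± SD, n = 3). For the fibrillar collagens it was 67.2 ± 3.67 and 51.7 ± 9.54 TPM, and for the other collagens 752 ± 14.03 and 863 ± 91.3 TPM. None of these 3 sums overlapped between the groups, and the two-sided exact permutation test gave P = 0.1 for each, the smallest that 3 against 3 libraries allow. Unlike the edgeR test, TPM carries no TMM factors. Scaled by library size alone, all genes tested had a median log2 fold change of 0.094, against 0.0043 with TMM factors. The sum of all collagens was 862, 1031 and 851 TPM in shNFKBIZ and 801, 823 and 835 TPM in shCtrl libraries. How much of its rise and that of the other collagens comes from scaling was not tested.

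**Figure D1:**
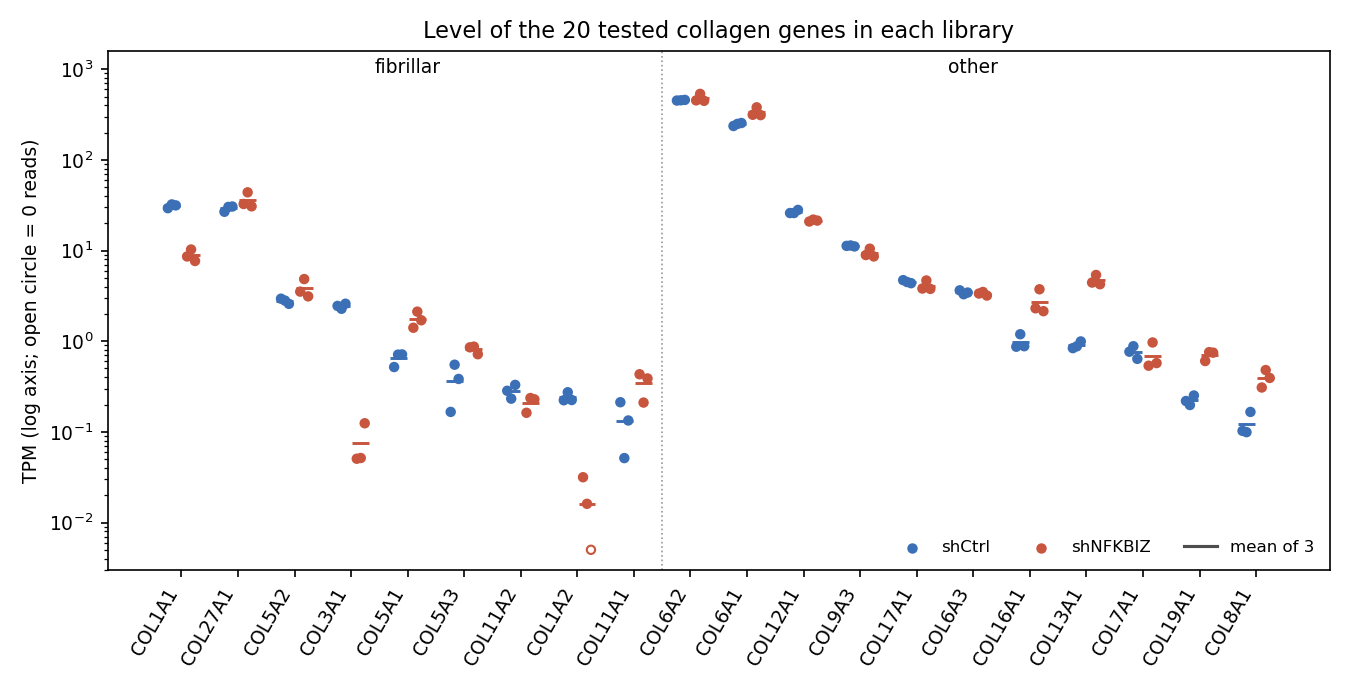
TPM (log axis) of the 20 tested collagen genes in each of the 3 shCtrl (blue) and 3 shNFKBIZ (red) libraries, with the mean of each group as a line and a library without reads as an open circle. Fibrillar collagens stand left of the dotted line and other collagens right of it. COL6A2 and COL6A1 lie far above the rest, COL1A1, COL3A1 and COL1A2 lie lower in shNFKBIZ, and COL13A1 moved from a mean of 0.904 to 4.69 TPM.

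The sequences before the transcription start are shown for 3 collagens that rose and for the most abundant collagen, which was not called, each with no exon annotated in the window. They are COL13A1 (chr10:69801656-69801879, plus strand), COL5A1 (chr9:134641553-134641802, plus strand), COL5A3 (chr19:10010505-10010754, minus strand) and COL6A2 (chr21:46097862-46098111, plus strand), from the RefSeq table on GRCh38.p14 and written 5′ to 3′ along the gene. Capitals mark the letters of a motif that was searched for on both strands.
COL13A1: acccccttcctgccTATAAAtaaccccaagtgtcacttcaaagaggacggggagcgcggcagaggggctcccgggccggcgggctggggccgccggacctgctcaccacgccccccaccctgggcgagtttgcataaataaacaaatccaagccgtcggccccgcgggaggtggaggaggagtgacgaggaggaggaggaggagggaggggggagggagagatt
COL5A1: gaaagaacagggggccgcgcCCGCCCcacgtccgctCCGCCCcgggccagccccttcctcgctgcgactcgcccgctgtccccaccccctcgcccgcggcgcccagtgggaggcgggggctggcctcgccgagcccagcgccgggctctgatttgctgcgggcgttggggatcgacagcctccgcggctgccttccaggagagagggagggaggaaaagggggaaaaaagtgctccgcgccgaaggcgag
COL5A3: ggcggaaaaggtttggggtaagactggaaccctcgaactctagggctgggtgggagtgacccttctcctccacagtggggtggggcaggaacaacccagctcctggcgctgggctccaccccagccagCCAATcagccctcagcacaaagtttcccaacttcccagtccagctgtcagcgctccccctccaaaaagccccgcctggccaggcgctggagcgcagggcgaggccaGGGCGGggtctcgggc
COL6A2: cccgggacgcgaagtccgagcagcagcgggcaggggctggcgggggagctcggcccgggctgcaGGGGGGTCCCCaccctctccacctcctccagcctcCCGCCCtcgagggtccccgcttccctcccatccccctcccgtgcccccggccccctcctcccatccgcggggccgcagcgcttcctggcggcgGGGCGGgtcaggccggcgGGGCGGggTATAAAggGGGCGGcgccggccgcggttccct

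The table held promoters for 32 of the 44 collagens, and the 250 bases before the start were searched in each, where a base could belong to more than 1 motif. COL1A1, COL1A2 and COL3A1, which fell, were not among the 32, so their promoters were neither searched nor shown. The motifs were the CCAAT box (letters CCAAT), the TATA box (TATAAA), the GC box bound by Sp factors (GGGCGG), the STAT site (TTCNNNGAA), the AP-1 site (TGANTCA) and the NF-κB site. They were found in 9, 5, 18, 1, 0 and 4 of the 32 collagen promoters, and in 32%, 10.7%, 42.6%, 6.57%, 6.57% and 9.96% of 35116 promoters of the table. Positions are counted from the RefSeq start, which for COL13A1 lies 26 bases inside the gene as the files give it. COL13A1 held a TATA box at -236 to -231 and none of the other motifs. COL5A1 held GC boxes from -230 and -214, and COL5A3 a CCAAT box from -122 and a GC box from -16. COL6A2 held overlapping NF-κB matches from -186 to -176, GC boxes from -151, -58, -40 and -24, and a TATA box from -32. COL7A1, COL15A1 and COL25A1 were the other collagens with an NF-κB match. A match of letters is a description of these windows and shows no binding.

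Among the fibrillar collagens, the chains of types I and III were lower and those of types V and XI were mostly higher in shNFKBIZ cells. COL1A1 (ENSG00000108821, chromosome 17, 50184101 to 50201632, minus strand), the α1 chain of type I collagen, counted 1643, 1869 and 1636 reads over its exons in the control libraries and 454, 532 and 411 after knockdown. All 3 knockdown libraries lay far below the controls. Its level fell from 31.0 ± 1.52 to 8.85 ± 1.32 TPM (mean ± SD, n = 3; log2 fold change -1.89, SE 0.0720, adjusted P 2.39e-12), and it passed from the third to the sixth rank among the collagens. COL1A2 (ENSG00000164692, chromosome 7, 94394895 to 94431227, plus strand), the partner chain of type I, was scarce in both groups, with 15, 19 and 14 reads in shCtrl and 2, 1 and 0 in shNFKBIZ libraries. The groups did not overlap (log2 fold change -3.85, SE 0.556, adjusted P 2.88e-06), with a ratio of summed reads of 0.0659 (95% exact interval 0.0131 to 0.204, counting error only).

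COL3A1 (ENSG00000168542, chromosome 2, 188974373 to 189012746, plus strand), which encodes the chain of type III collagen that forms fibrils together with type I, showed the largest change of the tested collagens. It had 103, 99 and 101 reads in shCtrl and 2, 2 and 5 in shNFKBIZ libraries. The groups were far apart, with a mean of 2.44 ± 0.156 TPM in shCtrl and 0.0755 ± 0.0424 TPM in shNFKBIZ cells (log2 fold change -5.03, SE 0.280, adjusted P 7.74e-13). COL5A2, which lies 19.2 kb from COL3A1 on the opposite strand, had 134, 132 and 109 reads in shCtrl and 151, 204 and 136 in shNFKBIZ libraries. After scaling to library size its groups did not overlap but lay close together (log2 fold change 0.38, SE 0.136, adjusted P 0.0214), and the call was lost without replicate 2 of shNFKBIZ (0.19, adjusted P 0.205) and in DESeq2 (adjusted P 0.0586).

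COL5A1 and COL5A3, further chains of type V, the collagen that helps to start type I fibrils, were higher. COL5A1 (ENSG00000130635, chromosome 9, 134641803 to 134844843, plus strand) had 36, 51 and 46 reads in shCtrl and 92, 136 and 113 in shNFKBIZ libraries. Every knockdown library exceeded every control (log2 fold change 1.34, SE 0.171, adjusted P 5.28e-07). A lncRNA on the opposite strand of COL5A1 (ENSG00000286502) had 8, 14 and 10 reads in shCtrl and 2, 1 and 0 in shNFKBIZ libraries, and strand was not used in the counting. With intron reads added to the exon reads, COL5A1 was at 0.88 and COL5A3 at 0.97, short of 2-fold. COL5A3 (ENSG00000080573, chromosome 19, 9959561 to 10010504, minus strand) had 7, 24 and 15 reads in shCtrl and 34, 34 and 29 in shNFKBIZ libraries (log2 fold change 1.06, SE 0.310, adjusted P 0.00511), a value that dropped to 0.71 without replicate 1 of shCtrl and was then not past the threshold.

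COL11A1, a chain of type XI, the fibril-starting collagen of cartilage, had 12, 3 and 7 reads in shCtrl and 23, 11 and 21 in shNFKBIZ libraries. A control library lay above the lowest knockdown library, so the groups overlapped, and the rise (log2 fold change 1.29, SE 0.413, adjusted P 0.00971) was not past the threshold without replicate 2 of shCtrl (0.90) or without replicate 1 of shNFKBIZ (1.09). Its partner COL11A2 had 13, 11 and 14 reads in shCtrl and 7, 10 and 10 in shNFKBIZ libraries and was not called (-0.50, SE 0.346, adjusted P 0.210). COL27A1, a fibrillar collagen of cartilage, was among the most abundant collagens here, with 2333, 2728 and 2473 reads in shCtrl and 2678, 3535 and 2563 in shNFKBIZ libraries. The groups overlapped at 29.2 ± 2.12 and 35.8 ± 7.09 TPM (log2 fold change 0.21, SE 0.154, adjusted P 0.306), and without replicate 2 of shNFKBIZ the value was 0.05. Of the last fibrillar genes, COL24A1 had 3 exon reads in all, none in shCtrl, and COL2A1, the collagen of cartilage, had none.

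The 6 basement membrane chains were close to absent in both groups, and none was tested. COL4A5 had the most reads, 12 in the shCtrl and 13 in the shNFKBIZ libraries together, and COL4A1, COL4A2, COL4A3, COL4A4 and COL4A6 had 1 to 5 each over all libraries. The summed TPM of the 6 chains was 0.0886 ± 0.0767 in shCtrl and 0.0979 ± 0.0486 in shNFKBIZ cells and overlapped (exact permutation P = 0.9). COL4A1 and COL4A2 form the main network of nearly all basement membranes, and their summed levels rested on 1 read against none and 1 read against 4. No difference was detectable at this depth. The multiplexins of basement membrane zones were also scarce. COL18A1, the source of endostatin, had 17 reads in shCtrl and 21 in shNFKBIZ cells. COL15A1 had 15, 9 and 16 reads in shCtrl and 5, 4 and 2 in shNFKBIZ libraries, a ratio of summed reads of 0.290 (95% exact interval 0.134 to 0.576, counting error only). It did not pass the filter on low counts, and without a filter the log2 fold change was -1.85 (adjusted P 0.000791).

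Type VI collagen, whose chains assemble into the beaded filaments around cells, was the most abundant type, and its partner chains did not move in step. COL6A1 (ENSG00000142156, chromosome 21, 45981770 to 46005050, plus strand) had 8145, 8878 and 8151 reads in shCtrl and 10204, 12102 and 10268 in shNFKBIZ libraries. The groups did not overlap and the means were 247 ± 9.55 and 336 ± 38.6 TPM (log2 fold change 0.36, SE 0.0665, adjusted P 0.00192), short of 2-fold. COL6A2 (ENSG00000142173, 93.1 kb downstream of COL6A1, 46098112 to 46132848, plus strand) had 14981, 15586 and 14124 reads in shCtrl and 14168, 16413 and 14232 in shNFKBIZ libraries. Its groups overlapped at 455 ± 3.73 and 479 ± 48.6 TPM (log2 fold change -0.01, SE 0.0478, adjusted P 0.872), and the sign changed with the scaling. Without replicate 2 of shNFKBIZ it was -0.08 (adjusted P 0.0385). COL6A3, the long chain of the same molecule, was far scarcer at 3.46 ± 0.172 and 3.35 ± 0.152 TPM (-0.13, SE 0.0668, adjusted P 0.0908). COL6A5 had no read in shCtrl and 8, 5 and 8 in shNFKBIZ libraries. This is at least 7.38-fold higher with shCtrl set to a floor of 3 summed reads, and the exact 95% lower limit of the ratio, which also covers counting error in the knockdown reads, was 5.49. Its neighbour COL6A6, 32.3 kb away, had none in any library.

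The transmembrane collagen COL13A1 (ENSG00000197467, chromosome 10, 69801880 to 69964275, plus strand), a cell surface collagen found at adhesion sites and the neuromuscular junction, showed the largest rise of the tested collagens. It had 60, 65 and 66 reads in shCtrl and 299, 356 and 291 in shNFKBIZ libraries. The groups were far apart (log2 fold change 2.29, SE 0.115, adjusted P 1.25e-13), and the gene passed from rank 12 to rank 7 among the collagens. COL17A1, the hemidesmosome collagen that anchors keratinocytes, had 205, 202 and 176 reads in shCtrl and 156, 188 and 157 in shNFKBIZ libraries and was not called (-0.23, SE 0.102, adjusted P 0.0516). COL25A1 had 3 and 9 summed reads and COL23A1 had 1 read in all.

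Collagens that sit on the surface of fibrils (the FACIT group) moved in both directions. COL16A1 (ENSG00000084636, chromosome 1, 31652263 to 31704319, minus strand) had 50, 71 and 47 reads in shCtrl and 125, 199 and 118 in shNFKBIZ libraries. Its groups did not overlap (log2 fold change 1.38, SE 0.225, adjusted P 0.000267). COL19A1 (ENSG00000082293, chromosome 6, 69866556 to 70212468, plus strand), a scarce collagen of basement membrane zones and developing muscle, had 15, 14 and 16 reads in shCtrl and 39, 48 and 49 in shNFKBIZ libraries, again without overlap (1.57, SE 0.240, adjusted P 6e-06). LMBRD1, which overlaps the start of COL19A1 on the opposite strand, was lower in shNFKBIZ cells (-0.31).

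COL12A1, a large FACIT of dense connective tissue, had 3041, 3145 and 3053 reads in shCtrl and 2309, 2381 and 2402 in shNFKBIZ libraries. The control libraries all lay above the knockdown libraries, at 26.6 ± 1.23 and 21.4 ± 0.524 TPM (-0.40, SE 0.0375, adjusted P 5.35e-09). COL9A3, a chain of the cartilage collagen IX, had 339, 354 and 310 reads in shCtrl and 253, 292 and 248 in shNFKBIZ libraries (-0.35, SE 0.0819, adjusted P 0.000721). Both were past the adjusted P but short of 2-fold. The end of COL9A3 overlaps the end of TCFL5 on the opposite strand. COL9A2 was not tested, with 28 and 19 summed reads, and COL9A1 had none, so a full set of type IX chains was not detected. The FACIT genes COL14A1, COL21A1 and COL22A1 had 1 to 4 reads each over all libraries, and COL20A1 had none in its exons.

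Of the short-chain collagens, COL8A1 (ENSG00000144810, chromosome 3, 99638475 to 99799226, plus strand), a network former of vessel walls and cornea, had 6, 6 and 9 reads in shCtrl and 17, 26 and 22 in shNFKBIZ libraries. The groups did not overlap (log2 fold change 1.60, SE 0.337, adjusted P 0.000278). COL8A1 had only 1 summed exon-exon read in shCtrl and 3 in shNFKBIZ libraries, too few to be tested on such reads. Its summed intron reads were 8 and 28. Its partner COL8A2 had no read in shCtrl and 1, 5 and 3 in shNFKBIZ libraries, at least 3.16-fold higher against the same floor, with an exact 95% lower limit of 2.08. Without a filter COL6A5 (adjusted P 1.05e-05) and COL8A2 (adjusted P 0.0107) passed the threshold as well. COL10A1, the collagen of hypertrophic cartilage, had 9 and 2 summed reads. COL7A1, the anchoring fibril collagen of skin, had 53, 63 and 41 reads in shCtrl and 35, 62 and 38 in shNFKBIZ libraries, and its groups overlapped (-0.23, SE 0.220, adjusted P 0.373). COL26A1 and COL28A1 had 2 reads each over all libraries.

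Among the shNFKBIZ libraries, replicate 2 had the highest TPM for 17 of the 20 tested collagens, and for 49.0% of all tested genes. Without it the log2 fold change of COL6A1 was 0.27, against 0.36 with all libraries, and that of COL16A1 was 1.11, against 1.38. In the edgeR test, COL7A1 (-0.53, adjusted P 0.0481), COL17A1 (-0.32, adjusted P 0.0132) and COL6A2 (-0.08, adjusted P 0.0385) then had an adjusted P of at most 0.05. COL5A2 (0.19, adjusted P 0.205) no longer did. In that fit 11 collagens were past the threshold, COL15A1 among them. Over all genes 1322 were past it, against 1241 with all libraries.

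Intron reads, which come largely from RNA that is not yet spliced, gave a second readout. Of 13 collagens with enough intron reads, 3 were past the same threshold, all higher, beside 6.6% of 12119 genes (2.71% higher and 3.89% lower). They were COL13A1, COL16A1 and COL19A1. COL13A1 had 55, 65 and 63 intron reads in shCtrl and 190, 176 and 167 in shNFKBIZ libraries (log2 fold change 1.45, SE 0.124, adjusted P 4.15e-12). COL16A1 had 27, 19 and 15 against 45, 59 and 51 (1.25, SE 0.220, adjusted P 1.88e-05), and COL19A1 had 19, 23 and 11 against 35, 40 and 48 (1.12, SE 0.245, adjusted P 0.000349). All 3 were thus higher in both kinds of reads, without overlap between the groups.

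The change in exon reads differed from that in intron reads for 5 of 12 collagens tested for it (adjusted P of at most 0.05, interaction term in edgeR), beside 28.9% of 11025 genes. COL5A1 had 39, 34 and 45 intron reads in shCtrl and 53, 36 and 41 in shNFKBIZ libraries. These overlapped while its exon reads rose, and the difference was 1.30 (SE 0.264, adjusted P 5.03e-05). COL13A1 rose more in exon than in intron reads (difference 0.85, SE 0.180, adjusted P 8.99e-05). COL6A3 (174 and 97 summed intron reads, -0.93, SE 0.187) and COL12A1 (317 and 184, -0.87, SE 0.143) fell in intron reads by more than in exon reads, with differences of 0.82 (adjusted P 0.000490) and 0.49 (adjusted P 0.00428). COL6A2 was the opposite case, with 1211, 1337 and 1316 intron reads in shCtrl and 1556, 1883 and 1562 in shNFKBIZ libraries (0.28, SE 0.0574) and a difference of -0.28 (SE 0.0588, adjusted P 9.97e-05). COL1A1 had 11 intron reads in shCtrl and none in shNFKBIZ cells, and COL3A1 had 7 and 1, too few for the test. COL24A1 had 71 and 104 intron reads beside its 3 exon reads, and COL20A1 had 12 and 2 beside none.

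**Figure D2:**
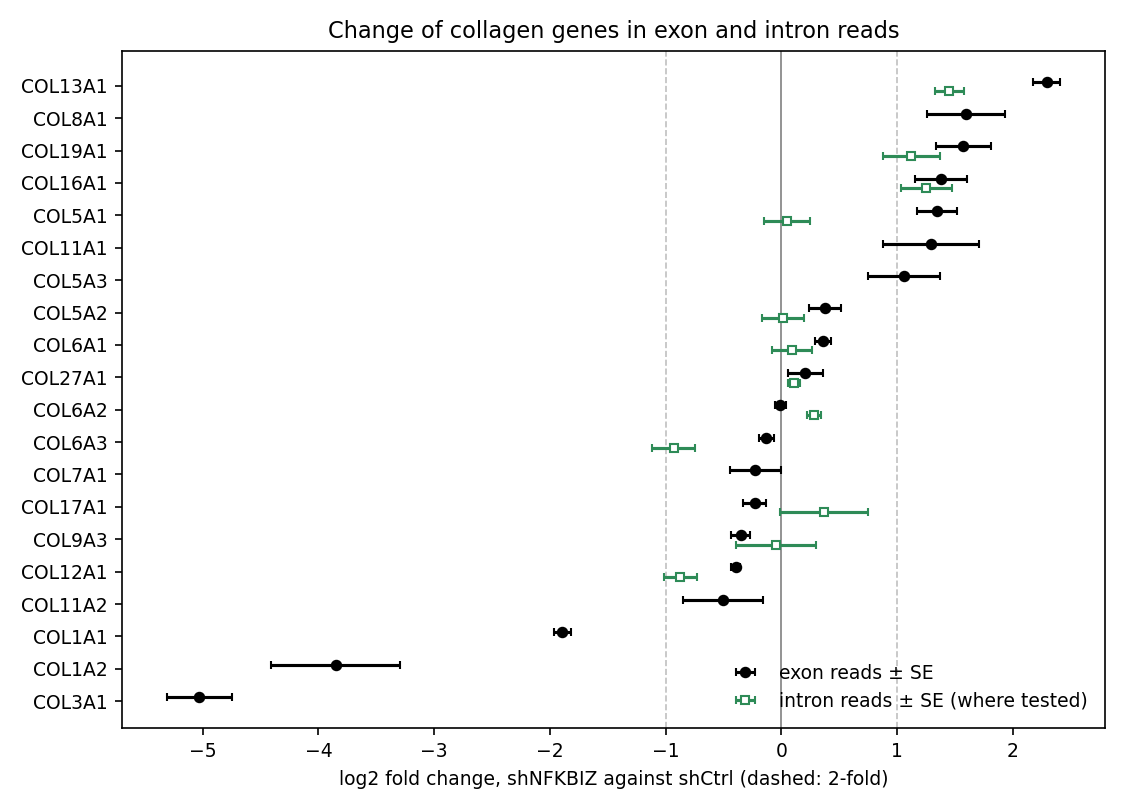
Log2 fold change (shNFKBIZ against shCtrl) of the 20 tested collagens in exon reads (black circles) and, for the 12 tested in both, in intron reads (green squares), with SE as bars and 2-fold as dashed lines. COL13A1, COL16A1 and COL19A1 lie beyond 2-fold in both, COL5A1 in exon reads at 1.34 and not in intron reads at 0.05, and COL3A1, COL1A2 and COL1A1 lie at -5.03, -3.85 and -1.89.

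Chains that join in 1 molecule or fibril were set side by side in TPM within each library. COL6A1 stood at 0.543 ± 0.0169 of COL6A2 in shCtrl and at 0.6998 ± 0.00920 in shNFKBIZ cells, higher in every knockdown library. COL5A1 stood at 0.235 ± 0.0526 of COL5A2 in shCtrl and at 0.461 ± 0.0754 in shNFKBIZ cells. COL3A1 stood at 0.0788 ± 0.00714 of COL1A1 and at 0.00903 ± 0.00623 after knockdown, lower in every knockdown library. The neighbouring genes COL3A1 and COL5A2 had similar levels in shCtrl (ratio 0.883 ± 0.105) and a ratio of 0.0216 ± 0.0159 in shNFKBIZ cells. This last pair was not among those planned.

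None of these 4 ratios overlapped between the groups, nor did COL6A1 to COL6A3 (71.6 ± 5.78 and 100.1 ± 7.83), and the exact permutation test gave P = 0.1 for each, the smallest possible. COL6A2 to COL6A3 overlapped at 132 ± 7.04 and 143 ± 9.29 (exact permutation P = 0.2). COL1A1 exceeded COL1A2 in both groups, 129 times in summed reads per exon length in shCtrl (95% exact interval 97.0 to 175) and 559 times in shNFKBIZ cells (191 to 2714), although type I collagen is usually built from both chains. The intervals do not overlap but cover counting error only. For COL4A1 and COL4A2 the reads were too few for a ratio.

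**Figure D3:**
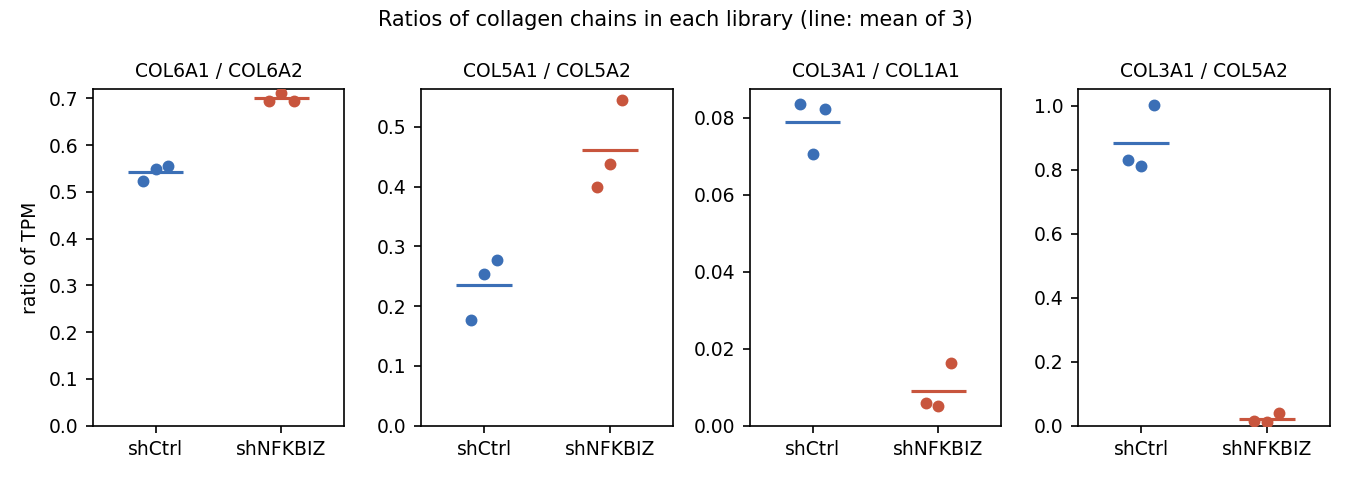
Ratio of TPM between collagen chains in each library, with the 3 shCtrl libraries in blue, the 3 shNFKBIZ libraries in red and the mean as a line; each axis starts at 0. COL6A1 to COL6A2 and COL5A1 to COL5A2 are higher in all 3 shNFKBIZ libraries, and COL3A1 to COL1A1 and COL3A1 to COL5A2 are lower in all 3.

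Collagen chains need a set of enzymes and chaperones before they leave the cell, and 63 genes of synthesis, binding and breakdown were looked at in 7 lists. Of these, 48 were tested, and 4 were higher and 5 lower past the threshold, beside 3.84% and 5.12% of all genes tested. The median log2 fold change of the 48 was 0.01, beside 0.0043 over all genes tested. Of 14 genes that modify prolines and lysines of the chains, all tested, none was higher and 2 were lower past the threshold, beside 3.84% and 5.12% of all genes (median -0.06). PLOD2, the lysyl hydroxylase that prepares the chain ends for stable cross-links, fell from 67.1 ± 4.27 to 16.6 ± 0.507 TPM (log2 fold change -2.10, SE 0.0459, adjusted P 5.55e-19). P3H2, a prolyl 3-hydroxylase, fell from 4.398 ± 0.341 to 1.63 ± 0.309 TPM (-1.51, SE 0.141, adjusted P 4.27e-09).

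None of 9 genes of folding and export was past the threshold (median -0.0040), beside 3.84% of all genes higher and 5.12% lower. Values are given for the 3 most abundant. PPIB, the prolyl isomerase cyclophilin B, was at 323 and 338 TPM (log2 fold change -0.02, adjusted P 0.676). SERPINH1, the collagen chaperone HSP47, was at 170.0 and 265 TPM (0.56, adjusted P 1.11e-11), and FKBP10 at 170.7 and 202 TPM (0.16, adjusted P 0.000716). P4HA1, a catalytic subunit of prolyl 4-hydroxylase (-0.995, adjusted P 1.42e-12), and CREB3L1, a factor that drives collagen genes in bone (0.999, adjusted P 0.000271), ended just short of 2-fold and were picked out after their values were seen.

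Outside the cell, ADAMTS3, a procollagen N-proteinase, was lower (log2 fold change -1.08, SE 0.183, adjusted P 2.22e-05). It was the only gene past the threshold among 4 tested of 8 for propeptide removal (median -0.16). Over all genes tested, 3.84% were higher and 5.12% lower past it, which applies to each list in this paragraph. LOXL1, a lysyl oxidase that cross-links matrix, rose from 2.62 ± 0.287 to 7.84 ± 0.270 TPM (1.49, SE 0.130, adjusted P 1.36e-09), the only one among 3 tested of 5 cross-linking genes (median 0.05). Of 7 matrix proteins that bind collagen, 3 were tested (median 0.41), and TGFBI was lower (-1.01, SE 0.0382, adjusted P 9.87e-16). The other tested members were more abundant and higher by less than 2-fold, SPARC from 284 to 400.3 TPM (0.41, adjusted P 1.3e-10) and FN1, fibronectin, from 179 to 271 TPM (0.51, adjusted P 4.98e-11), both picked out after their values were seen. ADAMTS3 (-0.99) and TGFBI (-0.92) were short of 2-fold when scaled by library size alone. ADAMTS3 was also short of it without replicate 2 of shNFKBIZ (-0.98), and TGFBI with exon-exon reads (-0.97) and without replicate 3 of shCtrl (-0.99) or of shNFKBIZ (-0.999). Of 8 receptors tested among 12 (median 0.15), OSCAR, a receptor for fibrillar collagens, was lower, at 5.99 ± 1.35 and 1.11 ± 0.505 TPM (-2.52, SE 0.264, adjusted P 4.72e-08).

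Of 8 genes of collagen breakdown, 7 were tested, 3 of them were higher and none was lower past the threshold, beside 3.84% and 5.12% of all genes (median 0.95). MMP9, a gelatinase, rose from 10.7 ± 1.85 to 62.9 ± 6.84 TPM (log2 fold change 2.48, SE 0.0952, adjusted P 4.25e-13). The interstitial collagenases MMP1 and MMP8 rose as well, MMP1 from 10.6 ± 0.788 to 26.1 ± 0.761 TPM (1.22, SE 0.0796, adjusted P 1.09e-11) and MMP8 from 0.812 ± 0.171 to 2.16 ± 0.320 TPM (1.33, SE 0.243, adjusted P 5.9e-05). A further collagenase, MMP13, was not tested, with 2, 2 and 1 reads in shCtrl and none in shNFKBIZ libraries. The summed level of the list was 395 to 449 TPM in shCtrl and 769 to 847 TPM in shNFKBIZ libraries. Most of this difference lay in MMP14, a membrane-type collagenase, which stood at 271 and 555 TPM and ended short of 2-fold (0.95, adjusted P 2e-13). FAP (-0.35, adjusted P 2.23e-06) and CTSK (-0.62, adjusted P 0.0013), a cathepsin, were lower by less than 2-fold. MMP13, MMP14, FAP and CTSK were picked out after their values were seen.

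**Figure D4:**
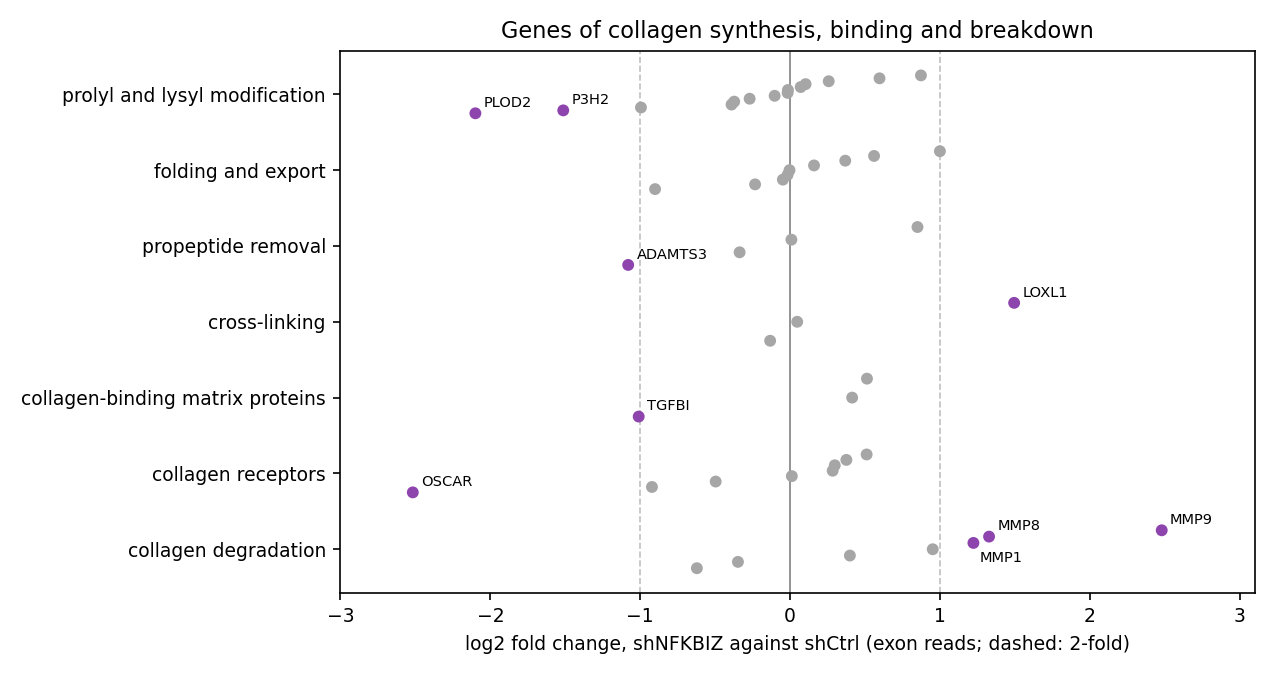
Log2 fold change (shNFKBIZ against shCtrl, exon reads) of the 48 tested genes of collagen synthesis, binding and breakdown in 7 lists, each point a gene, with 2-fold as dashed lines and genes past the threshold in purple. PLOD2, P3H2, ADAMTS3, TGFBI and OSCAR lie below -1, and LOXL1, MMP1, MMP8 and MMP9 lie above 1.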

How the data were processed

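RNA-seq counts from 3 shCtrl and 3 shNFKBIZ libraries were used, described by the study as independent experiments. The authors mapped reads to GRCh38 in CLC Genomics Workbench with default settings, counting read pairs once, without strand, and keeping reads with several matches. They deposited whole-number counts of exon, intron and exon-exon reads per gene and library. The sequencing provider is left out because labels and methods disagree on it. TPM was computed anew per exon length. The deposited values, written with a decimal comma, differed from it by at most 4.5e-09 in relative size where compared. All 44 collagens had the same coordinates in GENCODE release 44, 23 overlapped another gene, and of 40 with exon reads 39 had only uniquely mapped ones.

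Genes with low counts were removed with filterByExpr (13843 kept). Total exon reads were tested across all genes with edgeR 4.0.16 (TMM factors, robust quasi-likelihood F test, two-sided) in R 4.3.3, with Benjamini-Hochberg adjustment over all genes tested. The SE is the size of the log2 fold change divided by the square root of F. Intron reads were fitted likewise, and exon against intron change as an interaction with library blocks. Tested on simulated data drawn with the spread and depth of these libraries, the 3 fits recovered 96.5%, 93.5% and 95% of 200 genes and called 3, 1 and 13 unchanged ones, of 13668, 11921 and 11025 genes. Intervals are exact 95% and cover counting error only.

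Named with full values were collagens past the threshold or with a group mean of at least 10 TPM, and of the lists the genes past the threshold, or else the 3 most abundant. Members, lists and tests were chosen with earlier results of these data known. Alternatives were DESeq2 1.42.0, library size alone, RLE factors, no filter, a minimum of 10 counts in all libraries, total gene reads, unique exon reads, a replicate block, leaving out each library, no fold limit and a difference in mean TPM above 4 (the study states a difference of this size without a unit), with exon-exon reads added after the data were seen.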

Additional observations from a re-analysis of the deposited data

How the results depend on the processing

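The number of collagens past the threshold was 10 with RLE factors, library size alone, DESeq2, unique exon reads and the main settings, 9 with total gene reads and 7 with exon-exon reads, an alternative chosen after the data were seen. It was 13 without a filter and 14 without a fold limit (5 of them lower). It was 5 (4 higher, 1 lower) with at least 10 counts in every library, which leaves out scarce genes such as COL3A1, and 1 (0 higher, 1 lower) with a TPM difference above 4, which left COL1A1. Leaving out 1 library gave 9 to 11 collagens (6 to 7 higher, 3 to 4 lower), 1315 to 1361 genes in all and 9 to 12 list genes. Over all genes 1241 were past the threshold, 700 with exon-exon reads, 9039 without a fold limit, 555 with the TPM difference and 1740 without a filter, and 39 list genes were past it without a fold limit, against 9 with it. With a replicate block 10 collagens and 1244 genes were past it. The labels share replicate numbers, but deviations from the group means correlated by only 0.0207, 0.0561 and 0.0288 between libraries of the same number, so the numbers were not read as pairs. All 6 libraries correlated best with the library of their own number, a hint from the data that the design does not state. For single collagens, 280 of 290 alternative fold changes kept their direction and their side of the threshold, and for list genes and NFKBIZ 183 of 192. COL5A1 (0.88) and COL5A3 (0.97) were not past it with total gene reads, nor were ADAMTS3 (-0.99) and TGFBI (-0.92) with library size alone. COL6A2 turned to 0.0806 with library size alone, 0.00941 with total gene reads, 0.00589 with exon-exon reads, and 0.0213 and 0.0278 without replicate 1 or 3 of shNFKBIZ, and ranged from -0.0811 to 0.0278 when 1 library was left out. PPIB turned to 0.0729 with library size alone, 0.0594 with exon-exon reads and 0.000415 without replicate 2 of shCtrl, in a range from -0.0441 when 1 library was left out. Neither reached 2-fold under any of these, and the cause was not tested. Scarce collagens, the type IV chains above all, are limited by depth.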
